A study of Homo sapiens with 7 samples.

Results

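TFAP2B, OLIG2, CNR1 and NOS1 are genes whose products mark rhabdomyosarcomas that carry a PAX3 or PAX7 fusion. The HA CUT&RUN sites near these 4 genes were taken from a table of 5782 sites, each 400 bases long, by 1 rule: the centre of a site had to lie inside the hg19 gene interval or within 200 kb of it. The rule found 4 sites, of which 2 lay at TFAP2B and 2 at OLIG2. It found 0 sites at CNR1 and 0 at NOS1.

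The cells were Rh4, an established rhabdomyosarcoma line with the PAX3-FOXO1 fusion. In every group the fusion bore both an FKBP degron and an HA tag through which it was detected, the chromatin was crosslinked, and the label that differed between groups was the treatment: DMSO, 500 nM dTAG47 for 2 h, or 500 nM dTAG47 for 4 h, with 2 libraries each. dTAG47 is a small molecule that recruits a ubiquitin ligase to the degron, so that the tagged protein is degraded. All libraries come from 1 cell line, and the labels do not say that they came from separate cultures, so p-values measure only the spread between libraries, which may be technical.

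PAX3-FOXO1 binds DNA through its PAX3 part, activates transcription through its FOXO1 part, and acts largely from enhancers that lie at a distance from the genes they serve. In fusion-positive tumours it maintains a programme that mixes myogenic genes with genes of neural development. TFAP2B encodes AP-2 beta, a transcription factor of the neural crest. OLIG2 encodes a basic helix-loop-helix factor of oligodendrocyte and motor neuron precursors. CNR1 encodes the cannabinoid receptor CB1, and NOS1 encodes neuronal nitric oxide synthase. Antibodies against several of these proteins serve in diagnosis to recognise fusion-positive tumours. CUT&RUN counts DNA that a nuclease releases under the antibody, so it bears on occupancy near these genes and not on their expression.

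Library totals over all sites ran from 110440 to 380057 reads. The mean total was 55.9% of the DMSO mean at 2 h and 50.8% at 4 h. The 4 h columns did not differ beyond sampling noise (their chi-square over 5575 sites was 1.01 per degree of freedom, p = 0.24), so they may stand for 1 sample. The main fits and the comparisons by overlap below still treat them as separate libraries. The main fits share an estimate of the spread over all groups. Their SEs and p-values may therefore be too small in every comparison, that of 2 h with DMSO included. The DMSO pair and the 2 h pair had values of 2.09 and 1.96.

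No site lay inside any of the 4 genes. The TFAP2B interval, chr6:50786439-50815326, had its nearest site 14.4 kb beyond its higher-coordinate end, at chr6:50829508-50829908. Its other site was 60.1 kb beyond the same end, at chr6:50875243-50875643. RefSeq places TFAP2B on the plus strand, so both sites were downstream of the gene, on the side of PKHD1 and away from its paralogue TFAP2D. These sites were 45.7 kb apart, and each was the other's nearest neighbour in the table.

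The OLIG2 interval, chr21:34398216-34401503, had 1 site on each side. The nearer site, chr21:34431078-34431478, was 29.8 kb beyond the higher-coordinate end. On that side the related gene OLIG1 is the next protein-coding gene. The distance from the site to OLIG1 was not computed, so OLIG1 may be the closer gene. The farther site, chr21:34259527-34259927, was 138 kb before the lower-coordinate end. The nearest site of any kind was 172 kb away from the nearer site and 161 kb away from the farther one, so each was over 100 kb from any other, as were 42% of all sites.

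**Figure D1:**
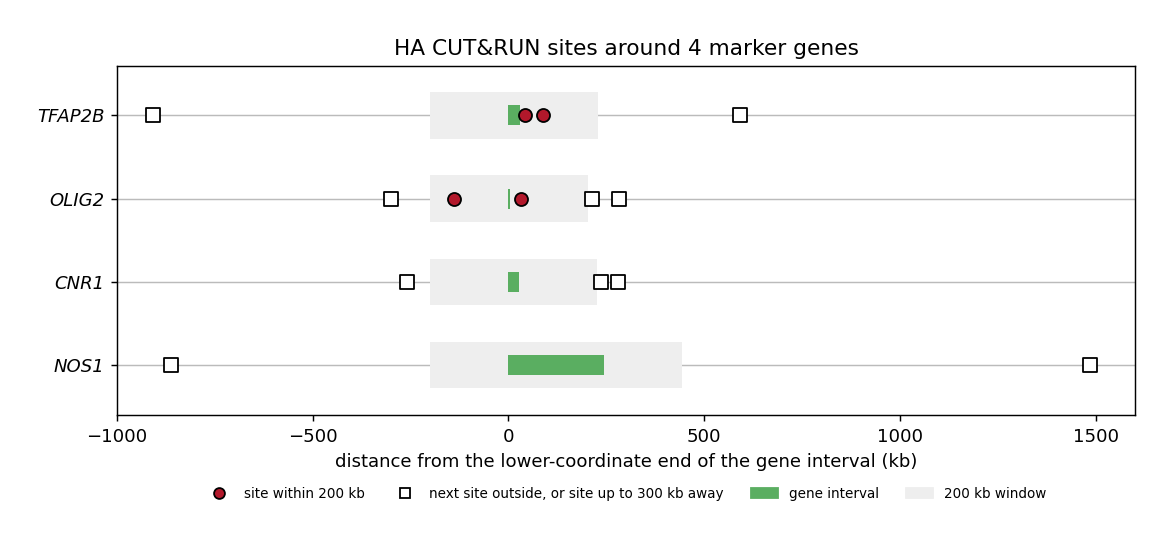
Positions of sites around the 4 genes, as distance in kb from the lower-coordinate end of each gene interval. Green bars are the gene intervals, grey bands the 200 kb windows, red circles the sites inside the windows and open squares the next sites outside or those up to 300 kb away; TFAP2B and OLIG2 have 2 sites each, and the windows of CNR1 and NOS1 are empty.

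The windows of CNR1 (chr6:88849583-88875767) and NOS1 (chr12:117645947-117889975) were empty in different ways. The sites that flank CNR1 were 498 kb apart, and 27.9% of the 5758 gaps between neighbouring sites were larger. Those that flank NOS1 were 2.35 Mb apart, and 4.08% of the gaps were larger. A gap that holds a given gene tends to be longer than one drawn from all gaps, and an empty window sets a least length. These percentages therefore do not measure how unusual CNR1 or NOS1 is. The median gap was 182 kb. The table lists reads only at chosen sites, so CNR1 and NOS1 had no measurement here, which is not a count of 0 reads. Over all 4 windows the density was 2.1 sites per Mb, against 1.95 per Mb between the first and last sites of the chromosomes.

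The edge of the window decided what counted as a CNR1 site. The farthest site inside any window was the OLIG2 site at 138 kb. Just outside, at 211 kb from CNR1, the site chr6:89086617-89087017 gave 48 and 100 reads in the DMSO libraries, 43 and 22 in those of 2 h and 39 and 37 in those of 4 h. Farther out on that side, at 253 kb, chr6:89128819-89129219 gave 36 and 73 reads in DMSO, then 17 and 6 after 2 h, then 8 and 9 after 4 h. Unlike the sites at 211 kb and 260 kb, it passed the test described below in some comparisons, given in the closing section. On the other side of CNR1, at 260 kb, chr6:88588998-88589398 gave 26 and 59 reads in DMSO, then 32 and 9 after 2 h, then 18 and 20 after 4 h. OLIG2 also had a site just outside, at 209 kb, chr21:34610370-34610770, where DMSO gave 44 and 56 reads, 2 h gave 28 and 11, and 4 h gave 14 in each column. For NOS1 the nearest sites were 0.86 Mb and 1.24 Mb away.

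In DMSO the OLIG2 sites held more HA signal than the TFAP2B sites. The raw count per 400-base site was 78.5 ± 43.1 (SD, n = 2) at the nearer OLIG2 site and 69.0 ± 26.9 (SD, n = 2) at the farther one, values that did not differ beyond their spread. It was 29.5 ± 12 (SD, n = 2) at the TFAP2B site 60.1 kb away. At the site 14.4 kb away it was 17.5 ± 6.36 (SD, n = 2). These raw values also overlapped, but their spread includes the depth of the libraries. Within a library the TFAP2B site 60.1 kb away was the higher, at 1.62 and 1.73 times the other in DMSO libraries A and B. The exact Poisson intervals of the TFAP2B sites still overlapped in each DMSO library, and this difference was not tested. The median DMSO mean over the whole table was 38 reads. The OLIG2 sites were above 84.3% and 80.1% of all sites, and the TFAP2B sites above 33% and 7.87%. The OLIG2 count was higher than the TFAP2B count in every library: within a library, where depth cancels, the ratio of the summed OLIG2 reads to the summed TFAP2B reads was 2.88 and 3.28 in DMSO, then 3.76 and 2.73 after 2 h, then 4.0 and 5.91 after 4 h.

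The question put to each site was how its HA reads differed after dTAG47. The counts and percentages by site are unscaled, so the lower library totals, 55.9% of the DMSO mean at 2 h and 50.8% at 4 h, enter them. Degradation of the fusion was not measured in these counts, and lost occupancy was not tested apart from depth. At the TFAP2B site 14.4 kb from the gene DMSO libraries A and B gave 13 and 22 reads, 2 h libraries A and B gave 10 and 6, and 4 h columns A and B gave 6 and 5. All treated libraries were below both DMSO libraries. The mean was 45.7% of the DMSO mean at 2 h and 31.4% at 4 h.

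At the TFAP2B site 60.1 kb from the gene DMSO gave 21 and 38 reads, 2 h gave 15 and 5, and 4 h gave 10 and 6. Here too every treated library was below both DMSO libraries. The mean was 33.9% of DMSO at 2 h and 27.1% at 4 h, the lowest percentages of the 4 sites at each time.

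At the OLIG2 site 29.8 kb from the gene DMSO gave 48 and 109 reads, 2 h gave 50 and 19, and 4 h gave 27 and 31. The 2 h library A was level with the DMSO library A, so these groups overlapped at 2 h but not at 4 h. The mean was 43.9% of DMSO at 2 h and 36.9% at 4 h. The raw log2 change ran from −2.04 (without the 2 h library A) to −0.47 (without the DMSO library B) at 2 h and from −1.91 to −0.72 (without the DMSO library A or B) at 4 h.

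At the OLIG2 site 138 kb from the gene DMSO gave 50 and 88 reads, 2 h gave 44 and 11, and 4 h gave 37 and 34. The lowest count came from the 2 h library B, and both 4 h columns lay between the 2 h libraries. The mean was 39.9% of DMSO at 2 h and 51.4% at 4 h. The raw log2 change at 2 h, −1.32 with all libraries, moved to −2.64 when 2 h library A was left out and to −0.65 when B was.

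**Figure D2:**
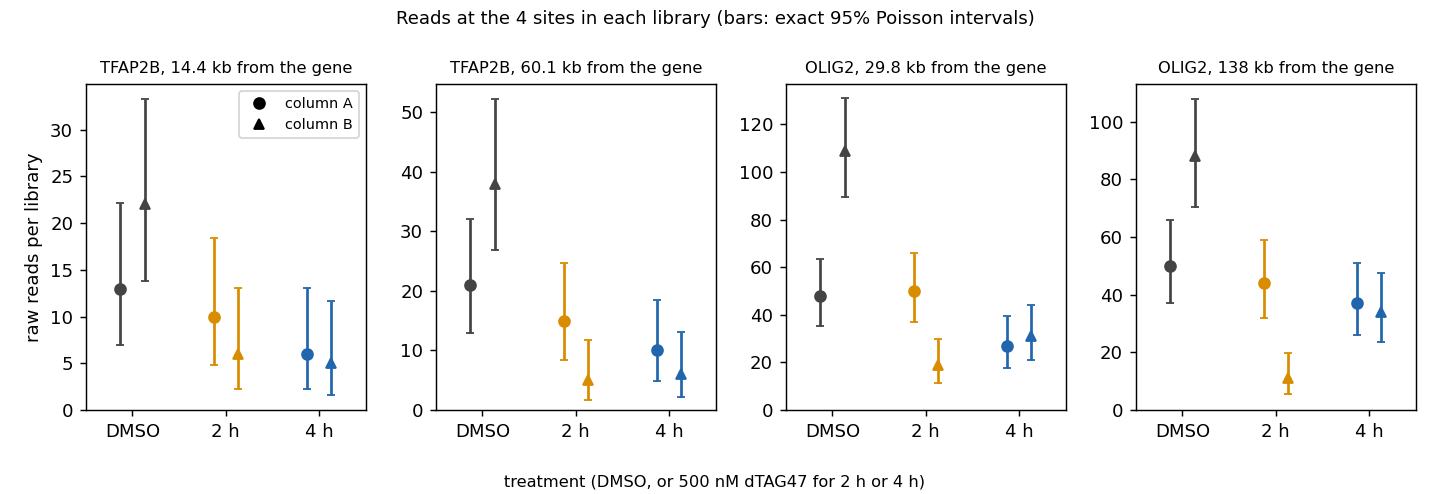
Raw reads in each library at the 4 sites, by treatment, with circles for column A, triangles for column B and bars for exact 95% Poisson intervals, which cover counting error only. The y axis of each panel starts at 0 and has its own range; the 4 h columns lie below the DMSO libraries at every site, and at the OLIG2 site 29.8 kb from the gene the 2 h library A (50 reads) lies above the DMSO library A (48 reads).

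In unscaled counts all 4 sites had lower fitted values at both times, and 0 of 4 passed the test (edgeR's quasi-likelihood test, p adjusted by Benjamini-Hochberg over 5575 sites, threshold 0.05). The share of all tested sites called was 1.04% at 2 h and 6.19% at 4 h, and lower fitted values were the rule in the table, at 97.4% and 97.8% of sites. At an unadjusted p under 0.05, 1 of the 4 sites passed at 2 h and 2 at 4 h, where 18.7% and 28.1% of all tested sites did. DESeq2 also called 0 at either time, where it called 0.664% and 6.87% of all tested sites. It gave 1 and 3 sites an unadjusted p under 0.05 (20.5% and 31.8% of all tested sites). By limma-voom 0 were called, against 3.23% and 8.88% of all tested sites, with 2 and 2 at an unadjusted p under 0.05 (26.5% and 30.2%).

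The TFAP2B site 60.1 kb away had the largest difference in these counts, 3.65-fold lower at 4 h (log2 change −1.87, SE 0.656, edgeR adjusted p = 0.0609). At 2 h it was 2.93-fold lower (log2 −1.55, SE 0.639, edgeR adjusted p = 0.187), a value that moved to −2.53 when 2 h library A was left out and to −0.97 when B was. The TFAP2B site 14.4 kb away was 3.13-fold lower at 4 h (log2 −1.65, SE 0.645, edgeR adjusted p = 0.0906). The nearer OLIG2 site was 2.7-fold lower at 4 h (log2 −1.43, SE 0.773) and the farther one 1.94-fold lower (log2 −0.96, SE 0.761). The median log2 change of the 4 sites was −1.25 at 2 h and −1.54 at 4 h, beside −0.93 and −1.08 over all tested sites. Both TFAP2B sites passed the threshold at 4 h, with adjusted p-values from 0.00672 to 0.017, when the fit held only DMSO and 4 h or when either 2 h library was left out, but calls then rose across the table, to between 24.6% and 24.8% of all tested sites. With the 4 h columns counted as 1 library the adjusted p-values of the 4 sites at 4 h were 0.641 to 0.642. Without the 2 h library A, 3 of the 4 sites passed at 2 h, the exception being the TFAP2B site 14.4 kb away, and so did 37.5% of all tested sites.

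The groups were also compared by whether they overlapped. In raw counts the pair of 4 h columns lay wholly under the DMSO pair at 4 of 4 sites, as at 80.3% of all tested sites, and the 2 h pair did so at 3 of 4, against 50.2%. As a share of each library's reads in sites, the treated pair lay wholly under the DMSO pair at 3 of 4 sites at 2 h and at 3 of 4 at 4 h, where 32.8% and 34.8% of all tested sites did. The exception was the nearer OLIG2 site at 2 h and the farther OLIG2 site at 4 h. Both TFAP2B sites were separated in this way at both times, which share their DMSO libraries. At the site 14.4 kb away the separation at 2 h was narrow, resting on 6 reads in the 2 h library B and 13 in the DMSO library A. Counting error did not enter these comparisons by overlap.

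**Figure D3:**
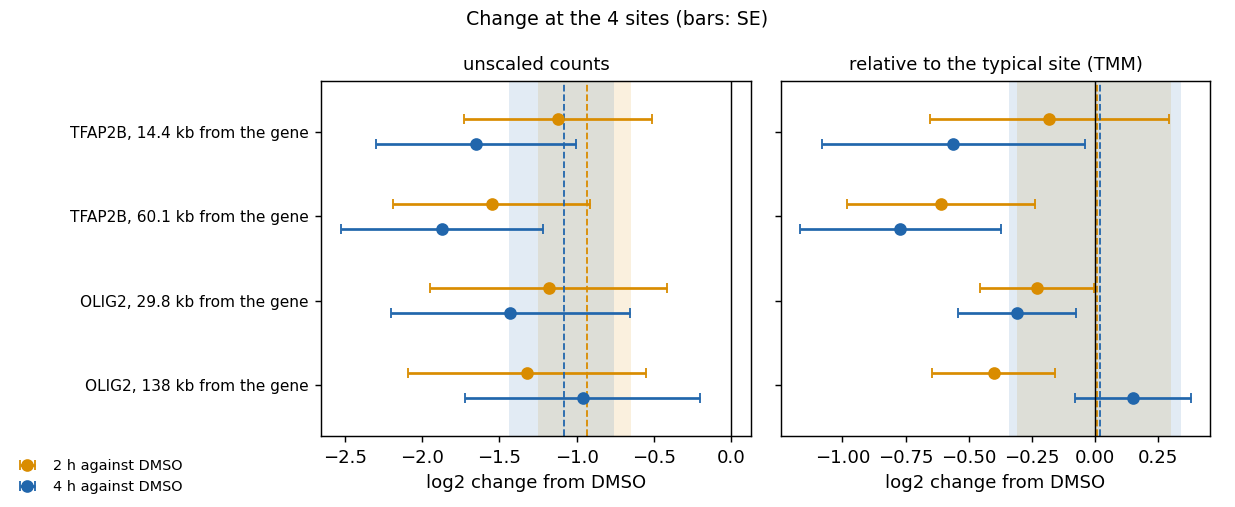
Log2 change from DMSO at the 4 sites after 2 h (orange) and 4 h (blue), in unscaled counts on the left and relative to the typical site on the right, with bars for the SE. Dashed lines mark the median of the 5575 tested sites and shaded bands their middle 50%, in the same colours; on the right the TFAP2B site 60.1 kb away lies at −0.61 and −0.77, and the OLIG2 site 138 kb away is at 0.15 at 4 h.

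Scaling by TMM sets each site against the typical site and so asks whether these loci changed more or less than the rest. A relative change cannot show that a site lost signal. None of the 4 sites was called at either time (edgeR gave 0 of 4, and 0 of 4 when p was left unadjusted, as did DESeq2 and limma-voom, for which 6.28% and 20.8% of all tested sites had an unadjusted p under 0.05 at 2 h and 9.36% and 25.3% at 4 h). By edgeR, of all tested sites 6.57% were called at 2 h and 11.4% at 4 h, and 19.8% and 25.4% had an unadjusted p under 0.05. Fitted values were lower at 4 of 4 sites at 2 h and 3 of 4 at 4 h, against 49.5% and 48% of all tested sites. The TFAP2B site 60.1 kb away had a relative log2 change of −0.61 at 2 h (SE 0.372, edgeR adjusted p = 0.372) and −0.77 at 4 h (SE 0.397, edgeR adjusted p = 0.223). In relative change 10.2% of tested sites were lower than it at 4 h. The TFAP2B site 14.4 kb away had −0.18 (SE 0.474) and −0.56 (SE 0.522), errors that follow counts as low as 5 reads.

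At the OLIG2 sites the relative changes were of similar size at 2 h and nearer to 0 at 4 h than at the TFAP2B sites, a difference that was not tested. The nearer site had −0.23 at 2 h (SE 0.226, edgeR adjusted p = 0.617) and −0.31 at 4 h (SE 0.234, edgeR adjusted p = 0.443). The farther site had −0.40 at 2 h (SE 0.244, edgeR adjusted p = 0.375) and 0.15 at 4 h (SE 0.23, edgeR adjusted p = 0.754). The median over the 4 sites was −0.32 at 2 h and −0.43 at 4 h, beside 0.01 and 0.02 over all tested sites. When libraries were scaled on the 20 highest sites instead, the farther OLIG2 site was at −0.89 at 4 h, and the TFAP2B site 60.1 kb away passed the threshold (log2 −1.80, SE 0.592, edgeR adjusted p = 0.0327), as did 10.8% of all tested sites.

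Counts were also summed over each locus. The TFAP2B sites together gave 34 and 60 reads in DMSO, then 25 and 11 after 2 h, then 16 and 11 after 4 h. That was 0.015% and 0.0158% of the library's reads in sites in DMSO, then 0.011% and 0.00996% after 2 h, then 0.0106% and 0.00701% after 4 h. All treated shares were below both DMSO shares, but their exact 95% binomial intervals overlapped: 0.0104% to 0.021% in the DMSO library A and 0.0035% to 0.0125% in the 4 h column B. The mean share was 0.678 times the DMSO share at 2 h and 0.57 times at 4 h.

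The OLIG2 sites together gave 98 and 197 reads in DMSO, then 94 and 30 after 2 h, then 64 and 65 after 4 h. Their shares were 0.0433% and 0.0518% in DMSO, then 0.0412% and 0.0272% after 2 h, then 0.0423% and 0.0414% after 4 h. The 4 h shares lay just under that of the DMSO library A, and the 2 h library B stood lowest. The mean share was 0.718 times the DMSO share at 2 h and 0.88 times at 4 h. Whether the TFAP2B and OLIG2 loci differ in their change was not tested.

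**Figure D4:**
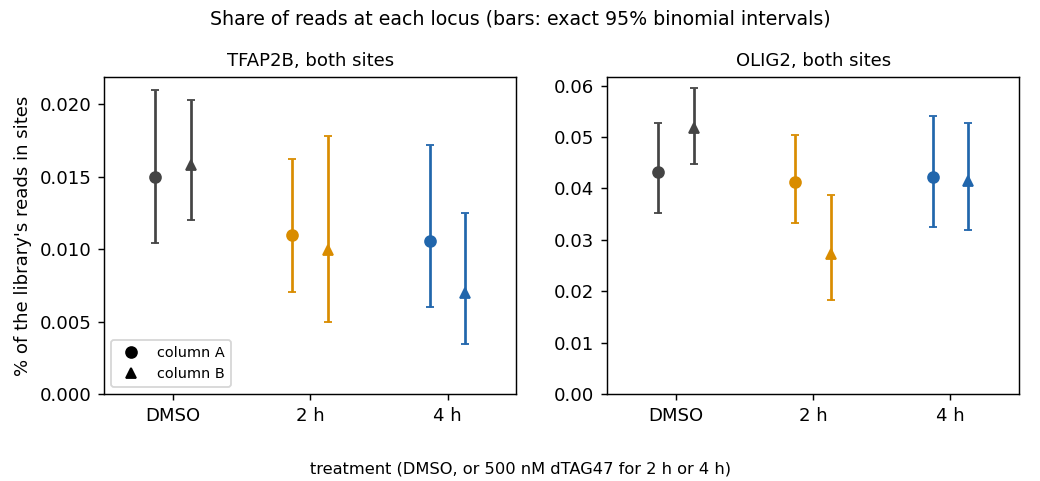
Reads at both sites of the TFAP2B locus (left) and of the OLIG2 locus (right) as a percentage of each library's reads in all sites, with circles for column A, triangles for column B and bars for exact 95% binomial intervals. Each y axis starts at 0 and has its own range; the TFAP2B shares are 0.015% and 0.0158% in DMSO and 0.0106% and 0.00701% at 4 h, with overlapping intervals, and the OLIG2 shares at 4 h (0.0423% and 0.0414%) are near that of the DMSO library A (0.0433%).

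Within a locus the balance between the sites can be read without any scaling. The ratio of the TFAP2B site 60.1 kb away to the site 14.4 kb away was 1.62 and 1.73 in DMSO, then 1.5 and 0.833 after 2 h, then 1.67 and 1.2 after 4 h. The ratio of the nearer to the farther OLIG2 site was 0.96 and 1.24 in DMSO, then 1.14 and 1.73 after 2 h, then 0.73 and 0.912 after 4 h. At 4 h both OLIG2 ratios were below both DMSO ratios, and at 2 h they overlapped them. The separation at 4 h was narrow: the 0.912 came from 31 and 34 reads and the 0.96 from 48 and 50. Counting error on so few reads is wide, and a change in balance was not tested.

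The comparison of 4 h with 2 h asked whether reads differed between the treated groups. None of the 4 sites was called, in raw or relative counts, by edgeR, DESeq2 or limma-voom, and neither was any other site by edgeR (0% of 5575). The farther OLIG2 site was the only one of the 4 with a higher fitted value at 4 h than at 2 h, where 66.3% of all tested sites had a lower one in raw and 50.5% in relative counts. It had a relative log2 change of 0.55 (SE 0.27, unadjusted p = 0.0491, edgeR adjusted p = 0.857). In relative counts edgeR and limma-voom each gave 1 of 4 sites an unadjusted p under 0.05 and DESeq2 gave 0, where they gave such a p to 5.76%, 5.38% and 0.52% of all tested sites in that order. In raw counts all 3 tools gave 0 of 4, where they gave such a p to 0.197%, 0.556% and 0.143% of all tested sites in that order. In raw counts that site's change was 0.37 (SE 0.777), and it was −0.31 without the 2 h library B, which held 11 of its reads against 44 in library A. The other 3 sites had relative changes of −0.38 to −0.08.

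For the site with the highest mean count at each locus, the sites elsewhere with the most similar pattern were sought by Euclidean distance between centred log2 relative counts over the 6 libraries. For the TFAP2B site 60.1 kb away the closest of 5558 was chr5:123651317-123651717, at a distance of 0.147 where the median was 1.24. It had 43 and 79 reads in DMSO, then 30 and 11 after 2 h, then 19 and 13 after 4 h. The next were chr12:30766375-30766775 at 0.209 and chr4:80880673-80881073 at 0.217. For the nearer OLIG2 site the closest of 3121 was chr18:29899637-29900037, at 0.0735 where the median was 0.764, with 62 and 142 reads in DMSO, then 64 and 24 after 2 h, then 33 and 39 after 4 h. The next were chr2:136763585-136763985 at 0.151 and chr11:107458115-107458515 at 0.179. The genes near these sites were not looked up.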

How the data were processed

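HA CUT&RUN libraries of Rh4 cells were analysed from 1 table of raw read counts per site that the authors deposited, not normalized. The submitters' processing notes name Genrich 0.6.1, Bowtie2, Trimmomatic 0.32, deepTools, DESeq2 and DiffBind, and the hg19 build, without their settings. How sites were chosen is not given in the sources used; a choice made on DMSO signal alone would raise the number of falls. Columns carry the treatment and a letter that no label ties to a replicate number, and 0 other columns of values were present. Since only the crosslinked DMSO group has 2 samples, its libraries were assigned to the DMSO columns, and the remaining DMSO library was not used here. Whether starts count from 0 or 1 is unknown. No sequences are printed, since no hg19 genome was used. Gene order and strand came from RefSeq for GRCh38.p14, by name only.

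Distances run from a site's centre to the nearer end of the gene interval. All sites in the windows are named. The 6 columns were fitted together over all 5575 sites that passed filterByExpr (minimum count 10, minimum total 15), among them all 4 described. The test was the quasi-likelihood test of edgeR 4.0.16 (R 4.3.3) with treatment as the only term and Benjamini-Hochberg adjustment. It kept the 4 h columns as separate libraries, with 3 residual degrees of freedom. Raw fits gave every library the same size, so differences in depth stay in them. Relative fits used totals in sites with TMM factors, except those by DESeq2, which used its own size factors. The SE is the log2 change over the square root of F. DESeq2 1.42.0, limma 3.58.1 (voom) and other settings were alternatives, and the fits were tested on simulated data. Intervals used Python 3.11.15 and scipy 1.17.1, and cover counting error only. The loci, window and tests were chosen with earlier results of these data known.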

Additional observations from a re-analysis of the deposited data

How the results depend on the processing

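Counts of called sites among the 4 were 0 in every comparison and became positive in these cases. With 1 library left out at a time, 0 to 3 sites were called in raw counts at 2 h (0 to 2092 over the whole table) and 0 to 2 at 4 h (0 to 1385). With the fit limited to DMSO and 4 h, 2 were called in raw counts (1374 over the table), and with scaling on the 20 highest sites 1 was called in relative counts at 4 h (600). A window of 300 kb, chosen after seeing the data, gave 1 call each for raw counts at 4 h, relative counts at 2 h and relative counts at 4 h. Of all tested sites 6.19%, 6.57% and 11.4% were called in these comparisons, in that order. All of these are chr6:89128819-89129219, 253 kb from CNR1, which had 36 and 73 reads in DMSO, then 17 and 6 after 2 h, then 8 and 9 after 4 h. No filter, a 100 kb window, DESeq2, limma-voom, scaling on totals and the 4 h columns as 1 library left every count at 0, and sites inside the genes gave no value because there were none. The cause was not tested. Where a group was left with 1 library, its spread was assumed equal to that of the others.

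Signs turned only for changes near 0 or between 4 h and 2 h, in 9 of 312 values. Raw changes from 2 h to 4 h became −0.31 at the farther OLIG2 site without the 2 h library B (range −0.31 to 1.68 with 1 library left out), and, without the 2 h library A, 0.61 at the nearer OLIG2 site (range −0.78 to 0.61) and 0.66 at the TFAP2B site 60.1 kb away (range −0.90 to 0.66). Relative changes at 2 h became 0.02 at the nearer OLIG2 site without the DMSO library B (range −0.39 to 0.02) and 0.10 at the TFAP2B site 14.4 kb away without the 2 h library A (range −0.32 to 0.10). The relative change at 4 h of the farther OLIG2 site was −0.89 scaled on the 20 highest sites. Relative changes from 2 h to 4 h became 0.07 at the nearer OLIG2 site without the 2 h library A (range −0.17 to 0.07), and 0.14 and 0.20 at the TFAP2B site 60.1 kb away without the 2 h library A or the 4 h column B (range −0.60 to 0.20). Summed over the locus and taken as a share of reads in sites, the log2 change at 4 h was −0.81 at TFAP2B and −0.19 at OLIG2, in place of −1.80 and −1.19 in raw counts.

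A replicate block by column letter left 0 of the 4 sites called in every comparison. Between groups the A to B differences correlated at −0.193 (DMSO, 2 h), 0.0119 and −0.00759 (with 4 h), which left pairing unsettled. Counts of 5 to 109 reads limit precision at these sites.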
